A study of Mus musculus with 2 samples.

Results

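The genes described here are 31 genes of sterol and fatty acid synthesis: enzymes of the mevalonate and cholesterol pathways, the regulators of the SREBP system, and enzymes that make, elongate and desaturate fatty acids. They were chosen by name, with earlier results of these data known. All 72 probe sets annotated to a single gene of the list were taken, out of 45037 probe sets and 18193 named genes. The list does not cover every gene of these pathways. Total RNA came from superficial zone (SFZ) cells of articular cartilage of ICR mice at postnatal day 4, and from costal chondrocytes (CC) of the ribs of ICR mice of the same age. The labels name no genetic change and no treatment, and do not say how many animals each preparation held. Both were grown in DMEM with 10% FBS and each was measured on 1 Affymetrix mouse genome array from 100 ng of RNA. With 1 array per cell type no difference has a replicate check, so the values are described without tests.

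Cells make cholesterol from acetyl-CoA through mevalonate, isoprenoid diphosphates, squalene and lanosterol. The membrane-bound transcription factors SREBP1 and SREBP2, encoded by *Srebf1* and *Srebf2*, switch on these enzymes when sterols are scarce: SCAP escorts them from the endoplasmic reticulum to the Golgi for cleavage, and INSIG proteins hold the complex back when sterols are plentiful. SREBP1 is known mainly for fatty acid synthesis and SREBP2 for cholesterol synthesis. Cultured cells also take up lipoprotein cholesterol and fatty acids from serum, and mutations of several sterol enzymes, among them *NSDHL*, *EBP* and *DHCR7* in human, cause malformations of the skeleton.

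The values are MAS5 signals, linear intensities per probe set, and a ratio is given as CC over SFZ unless the log2 scale is named, where it is SFZ over CC. Where a pair of signals is given, the SFZ value comes first. A gene was called higher in CC where the CC signal was over 100 and the ratio was over 2, and higher in SFZ cells by the mirror image, on the probe set of the gene with the highest mean log2 signal. A background level, the 95th percentile of 84 odorant, taste and vomeronasal receptor probe sets, lay at 28.2 for the SFZ array and 26.2 for CC. Among the defining markers of the samples, the joint lubricant gene *Prg4* had a signal of 323 in SFZ cells against 73.6 in CC, while *Gdf5*, a growth factor gene of the joint surface, was at 93.1 and 74.2. The cartilage collagen genes *Col9a1* and *Col11a1* were at 11711 and 12088 in SFZ cells and 11816 and 10872 in CC, so neither differed by a ratio of 2. Of the 8 chondrocyte markers 1 was called in SFZ cells and 0 in CC. It was *Matn1*, a cartilage matrix gene named after its values were seen, at 9989 and 2692. Of the 6 superficial zone markers 1 was called in SFZ cells, *Prg4*, and 1 in CC, *Thbs4*, at 108 and 388, so this list was split. Summed signals were 68052 and 53896 for the chondrocyte markers and 1421 and 1264 for the 6 superficial zone markers, with *Cilp* at or under background on both arrays. Markers of other cell types had higher signals in CC. Each of the 10 skeletal muscle markers was called there, with a summed signal of 238 in SFZ cells against 29614 in CC and with *Myog*, *Myod1*, *Tnnt3*, *Tnnc2*, *Ckm* and *Myh3* at or under background on the SFZ array. Of 8 adipocyte markers named on the array 6 were called in CC, with summed signals of 1053 and 11970. Of these markers *Adipoq*, *Pparg*, *Cebpa*, *Retn*, *Cd36* and *Cidec* were at or under background in SFZ cells, and *Cidec* also in CC. Fibroblast markers were called in CC for 5 of 6 genes and macrophage markers for 4 of 6, with summed signals of 6957 against 16236 and 448 against 2016. In bulk RNA a change in the make-up of the cells and a change in RNA per cell cannot be told apart, and the part of these cells in the results below was not tested.

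All 31 genes were above background on both arrays and all were over 100 on at least 1. No gene was called in SFZ cells, whereas 7 were called as higher in CC: *Hsd17b7*, *Nsdhl*, *Tm7sf2*, *Acss2*, *Idi1*, *Scd1* and *Hmgcs1*. This is 22.6% of the genes, against 5.41% of all named genes called in CC and 11.0% of the 8986 genes with a signal over 100 on at least 1 array. The background toward SFZ cells was 1.18% of all genes and 2.38% of those over 100. Of the 31 genes, 29 had the higher signal in CC, or 93.5% against 69.0% of the genes over 100, and 14 had a ratio over 1.5, or 45.2% against 21.2%. The median log2 ratio of the 31 genes was -0.50, against -0.20 for the genes over 100. The deposited signals were used unscaled, and the median of the genes over 100 moved to -0.0048 after scaling to equal medians and to 0.03 after quantile normalization. Relative to it the median of the 31 genes was at -0.30 as deposited, -0.31 after median scaling and -0.35 after quantile normalization. After quantile normalization the same 7 genes were called in CC and none in SFZ cells, beside 7.64% and 4.20% of the genes over 100. The direction of *Pmvk*, *Fdps*, *Sc5d* and *Insig1* turned toward SFZ cells under both scalings and that of *Scd2* under median scaling. *Hmgcs1* was no longer called after median scaling, and *Tm7sf2* and *Acss2*, with SFZ signals of 50.6 and 54.2, were no longer called with 64 added to both signals.

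**Figure D1:**
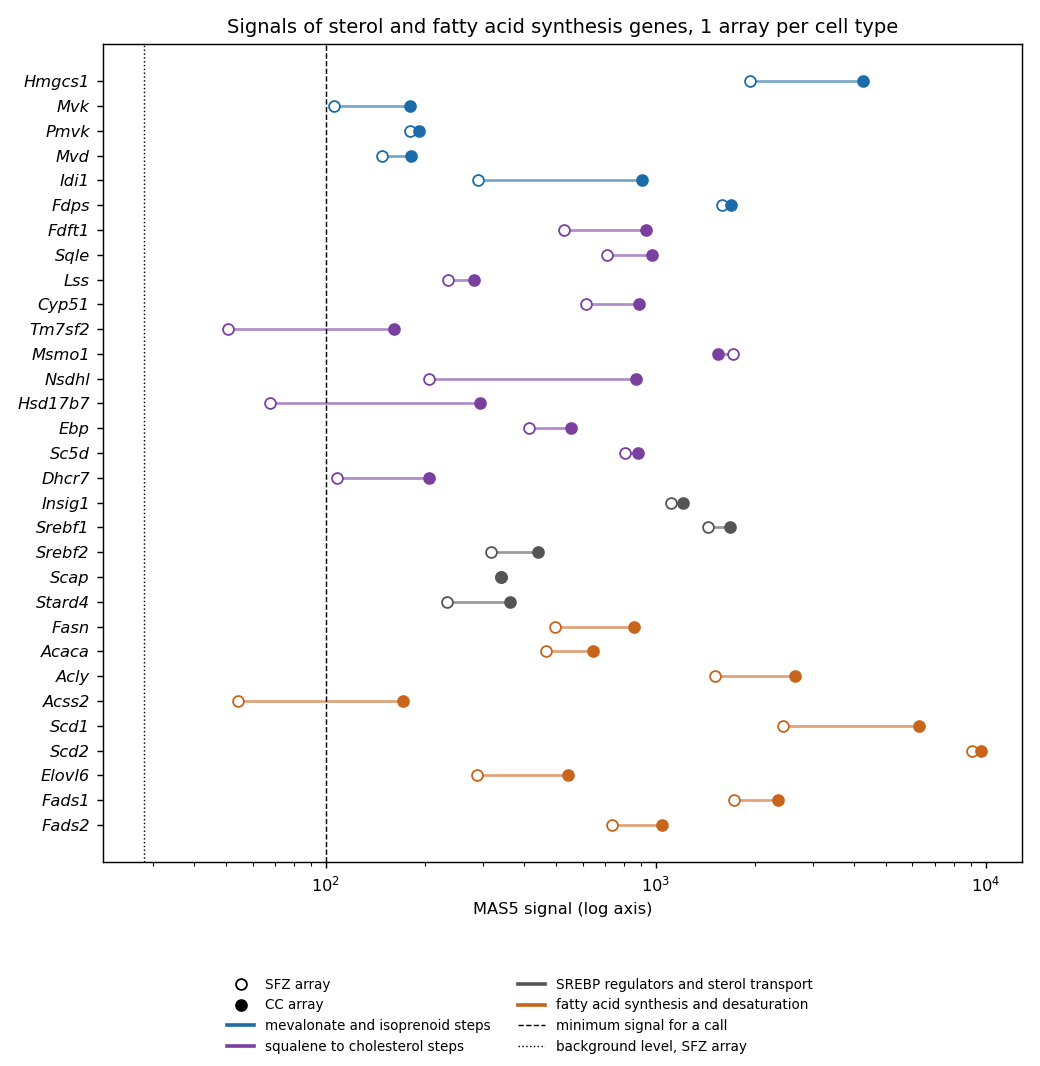
MAS5 signals on a log axis for the 31 genes in pathway order, with the SFZ array as open and the CC array as filled points and colours for the 4 groups of genes. The dashed line is the minimum signal of 100 and the dotted line the SFZ background level of 28.2. The filled point lies to the right for 29 genes, and the lines are long for *Nsdhl*, *Hsd17b7*, *Idi1*, *Tm7sf2* and *Acss2* and short for *Scap*, *Pmvk*, *Scd2* and *Fdps*.

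The promoters of the genes are shown because SREBPs act together with the factor NF-Y, which binds CCAAT boxes. RefSeq promoter windows of GRCm38.p6, from 250 bases before to 50 after the start, were found for 24 of the 31 genes. *Fdps*, *Fdft1*, *Sqle*, *Stard4*, *Scd1*, *Scd2* and *Fads1* had no window in the table used. Both strands were searched for the letters CCAAT (NF-Y box), TCACNCCAC (an SREBP element), CACGTG (E-box, the same on both strands) and GGGCGG (GC box). An NF-Y box was present for 20 of the 24 genes, or 83.3%, against 41.1% of 27025 genes with a window and 43.0% of those over 100 on the arrays. Since some genes have several windows, the share was also taken by window, at 21 of 30, or 70.0%, against 37.4%. The box was present for all 6 genes called in CC that had a window and for 14 of the 18 that were not called, so most genes of either kind held it. The SREBP element was found only for *Hmgcs1*, or 4.17% of the genes against 1.44% of all and 1.38% of those over 100. The E-box was present for 20.8% against 8.09%, or 12.4% of the genes over 100, and the GC box for 83.3% against 38.2%, or 72.1% of the genes over 100. *Mvk* held 5 NF-Y boxes, *Hmgcs1* and *Nsdhl* 4 each, and *Hsd17b7*, *Msmo1* and *Fasn* 3 each, of which 2 overlap in *Fasn*. A match is a description of letters and not a measured site, and no match says only that these letters are not in the window.

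The 180 bases before the start are given 5′ to 3′ for the 4 called genes of the sterol pathway with more than 1 box, and for *Msmo1*, which was not called, to set the same boxes beside a near-equal signal. Capitals mark NF-Y boxes on either strand and, in *Hmgcs1*, also the SREBP element. In GRCm38.p6 the stretches are chr13:119690171-119690350 on the + strand for *Hmgcs1*, chr13:8885426-8885605 on the + strand for *Idi1*, chrX:72918341-72918520 on the + strand for *Nsdhl*, chr1:169969206-169969385 on the - strand for *Hsd17b7* and chr8:64733579-64733758 on the - strand for *Msmo1*.
Hmgcs1: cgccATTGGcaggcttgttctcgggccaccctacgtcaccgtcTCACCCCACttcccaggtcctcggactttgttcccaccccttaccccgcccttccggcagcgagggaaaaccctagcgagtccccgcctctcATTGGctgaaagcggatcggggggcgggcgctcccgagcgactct
Idi1: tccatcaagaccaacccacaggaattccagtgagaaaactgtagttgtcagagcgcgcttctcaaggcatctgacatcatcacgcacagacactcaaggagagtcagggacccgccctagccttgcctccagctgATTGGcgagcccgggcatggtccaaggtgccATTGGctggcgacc
Nsdhl: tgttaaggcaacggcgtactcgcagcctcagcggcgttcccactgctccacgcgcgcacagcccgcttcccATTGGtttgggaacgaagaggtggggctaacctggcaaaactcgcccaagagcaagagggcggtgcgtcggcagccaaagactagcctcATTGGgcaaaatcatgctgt
Hsd17b7: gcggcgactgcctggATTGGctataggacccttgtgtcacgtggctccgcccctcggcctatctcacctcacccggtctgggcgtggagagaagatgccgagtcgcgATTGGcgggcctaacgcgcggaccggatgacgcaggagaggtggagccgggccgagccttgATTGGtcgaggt
Msmo1: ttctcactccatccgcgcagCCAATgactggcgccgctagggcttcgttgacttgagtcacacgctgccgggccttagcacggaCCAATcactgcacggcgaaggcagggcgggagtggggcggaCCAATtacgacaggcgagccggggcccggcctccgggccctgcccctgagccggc

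The stretches of *Hmgcs1*, *Idi1* and *Nsdhl* hold 2 NF-Y boxes each, and those of *Hsd17b7* and *Msmo1* hold 3 each. *Hsd17b7* had a ratio of 4.35 and *Msmo1*, chosen for its near-equal signal, of 0.901. Whether the boxes bear on the ratios was not tested.

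In the mevalonate steps, *Hmgcs1*, which makes HMG-CoA from acetyl-CoA units, had a signal of 1933 in SFZ cells against 4263 in CC, a ratio of 2.21. Its other 3 probe sets above background on both arrays had ratios of 2.43, 2.53 and 2.62, so all 4 were called. *Idi1*, the isomerase of isopentenyl diphosphate, was at 289 and 908, a ratio of 3.14, and at 211 and 604 on its second probe set, a ratio of 2.86. The genes between and after them were nearer to equal on the probe sets used. *Mvk*, mevalonate kinase, was at 106 and 180, a ratio of 1.70, while its second probe set at 55.2 and 126 had a ratio of 2.28 and passed. *Pmvk*, the next kinase, was at 180 and 191, a ratio of 1.06. *Mvd*, the decarboxylase that makes isopentenyl diphosphate, was at 148 and 181, a ratio of 1.23. These 3 enzymes act between *Hmgcs1* and *Idi1* in the pathway, and on the probe sets used their ratios were smaller than those of either. The second probe set of *Mvk*, at 2.28, was above the 2.21 of *Hmgcs1*. *Fdps*, which joins isoprenoid units to farnesyl diphosphate, was at 1587 and 1696, a ratio of 1.07. Thus 2 of the 6 genes were called, beside 11.0% of the genes over 100, and the median log2 ratio of the group was -0.53.

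Of the 11 genes from squalene to cholesterol, 3 were called in CC, beside 11.0% of the genes over 100. The median log2 ratio of the group was -0.54. *Fdft1*, squalene synthase, was at 526 in SFZ cells against 932 in CC, a ratio of 1.77, and had 1.73 on its second bright probe set. Another probe set of *Fdft1* ran the other way at 35.7 in SFZ cells, with the CC signal of 10.5 under background. *Sqle*, the epoxidase of squalene, was at 710 and 973, a ratio of 1.37. Neither this step nor ring closure reached the threshold. *Lss*, which closes the rings to lanosterol, was at 235 and 282, a ratio of 1.20. *Cyp51*, the first demethylase of lanosterol, was at 613 and 891, a ratio of 1.45, whereas its other probe sets gave 2.63 at 139 and 367 and 1.14 at 43.8 and 49.8. Its ratio therefore depended on the probe set.

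Removal of methyl groups from the sterol ring needs the oxidase *Msmo1*, the dehydrogenase *Nsdhl* and the ketoreductase *Hsd17b7*, and the 3 genes did not have like ratios. *Msmo1* was at 1719 in SFZ cells against 1548 in CC, a ratio of 0.901. *Nsdhl* was at 205 and 874, a ratio of 4.25 on its only probe set. *Hsd17b7* was at 67.6 and 294, a ratio of 4.35. Both were thus called, next to an oxidase with the higher signal in SFZ cells. The other probe sets of *Hsd17b7* gave 3.46 at 66.5 and 230 and 1.97 at 78.3 and 154. A dim one was at 30.5 in SFZ cells against 19.3 in CC, the latter under background. The size of the difference in *Hsd17b7* therefore depended on the probe set. *Tm7sf2*, a reductase that acts on the product of *Cyp51*, was at 50.6 and 161, a ratio of 3.19, on 1 probe set with a low SFZ signal.

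The last enzymes were not called. *Ebp*, a sterol isomerase, was at 412 in SFZ cells against 554 in CC, a ratio of 1.34. *Sc5d*, a sterol desaturase, was at 809 and 882, a ratio of 1.09, and its other probe sets had ratios of 1.62 and 0.873. *Dhcr7*, the reductase that converts dehydrocholesterol to cholesterol, was at 108 and 206, a ratio of 1.90, just under the threshold. Also just under it was *Elovl6* at 1.88. The called genes of lowest ratio were *Hmgcs1* at 2.21 and *Scd1* at 2.58.

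**Figure D2:**
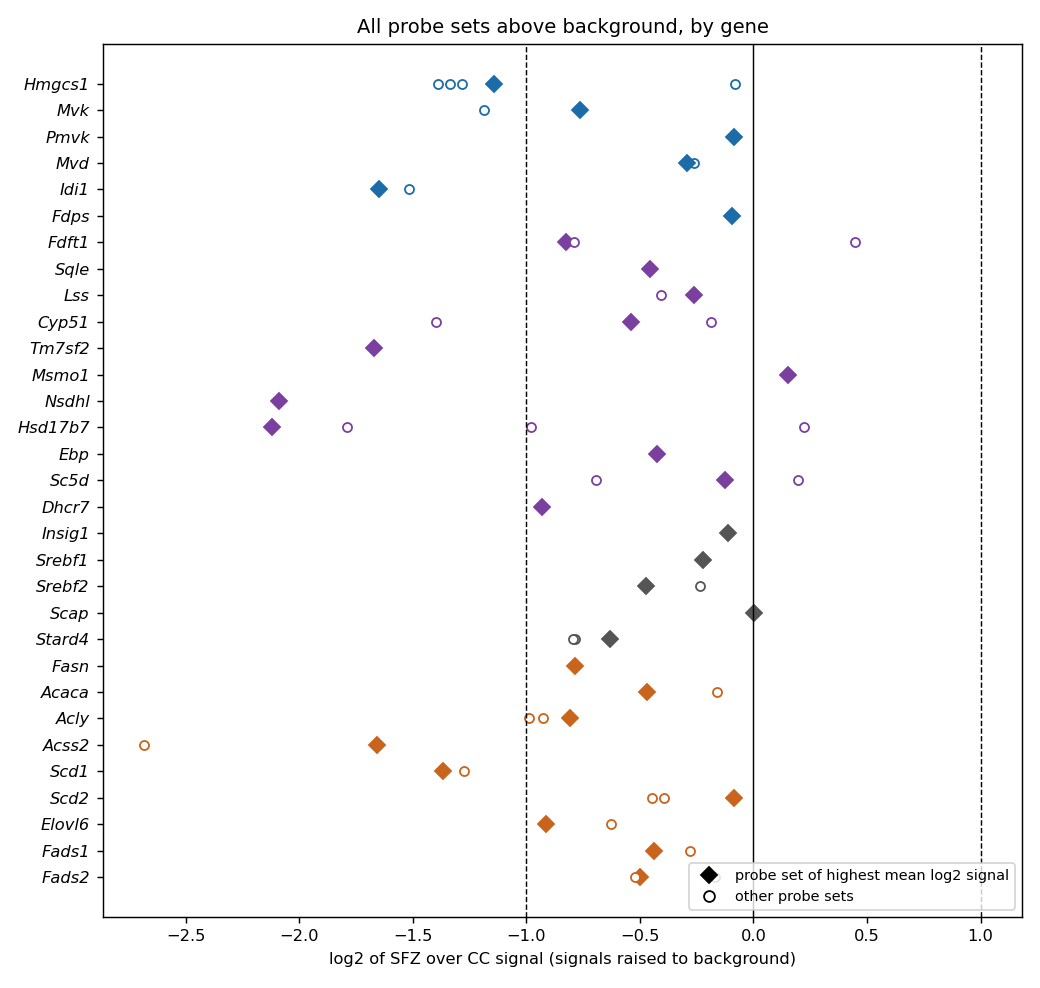
Log2 ratio of SFZ over CC for the 62 probe sets of the 31 genes above background on at least 1 array, signals raised to background, with 1 array per cell type. Diamonds are the probe sets used for each gene, circles the others, and the dashed lines stand for a ratio of 2. *Hmgcs1* has 4 points beyond the line toward CC, and points of *Fdft1*, *Hsd17b7* and *Sc5d* lie on both sides of 0.

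None of the 5 genes of the regulators and sterol transport was called, and their ratios ran from 0.999 to 1.55 on the probe sets used. Of the genes over 100, 11.0% were called in CC and 2.38% in SFZ cells. A count of none among so few genes lies near these shares. *Srebf1* was at 1445 in SFZ cells against 1684 in CC, a ratio of 1.16. *Srebf2* was at 316 and 438, a ratio of 1.39, near the median ratio of 1.41 of the 31 genes, and had 1.18 on its second probe set. *Scap*, the escort of the SREBPs, was at 340 and 339, a ratio of 0.999. The transcription factors and their escort thus differed by less than 1.5-fold. *Insig1*, which retains the complex and is itself a target of SREBPs, was at 1116 and 1206, a ratio of 1.08. *Stard4*, a cytosolic sterol carrier, was at 233 and 362, a ratio of 1.55, with 1.73 on each of its other probe sets. The median log2 ratio of the group was -0.22, next to -0.20 for the genes over 100. mRNA signals do not report the cleavage of the SREBP proteins.

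Other genes of SREBP processing were measured for 7 of 8 listed, and none was called. Of the genes over 100, 11.0% were called in CC and 2.38% in SFZ cells. The median log2 ratio was -0.09. *Spring1*, a cofactor of SREBP cleavage, was at 126 in SFZ cells against 92.4 in CC, and *Erlin2*, a membrane protein of the endoplasmic reticulum that takes part in degradation, at 404 and 506. Genes that use isoprenoids, 7 of 9 listed, had a median of -0.03 with none called, beside the same shares of the genes over 100. *Coq2*, of ubiquinone synthesis, was at 434 and 319, and *Fntb*, a farnesyltransferase subunit, was at 86.1 and 71.4.

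Of the 9 genes of fatty acid synthesis and desaturation 2 were called in CC, beside 11.0% of the genes over 100. All 9 had the higher signal in CC as deposited, beside 69.0% of the genes over 100. Under median scaling *Scd2* turned toward SFZ cells on the probe set used. The median log2 ratio of the group as deposited was -0.79. The enzymes that supply acetyl-CoA both ran toward CC. *Acly*, which cleaves citrate, was at 1512 in SFZ cells against 2647 in CC, a ratio of 1.75, and at 1.90 and 1.99 on the other probe sets above background. *Acss2*, which activates acetate, was at 54.2 and 171, a ratio of 3.16, and its second probe set at 33.7 and 216 had 6.42. Both probe sets of *Acss2* were called, with low SFZ signals. *Acaca*, acetyl-CoA carboxylase, was at 466 and 644, a ratio of 1.38. *Fasn*, fatty acid synthase, was at 497 and 857, a ratio of 1.73. *Elovl6*, which elongates its product, was at 288 and 542, a ratio of 1.88, and 1.55 on the second probe set.

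The stearoyl-CoA desaturases, which put the first double bond into saturated fatty acids, differed from each other. *Scd1* was at 2431 in SFZ cells against 6265 in CC, a ratio of 2.58, and its second probe set had 2.42. *Scd2* was at 9108 and 9656, a ratio of 1.06, and its other probe sets had 1.31 and 1.36. No probe set of *Scd2* reached the lowest ratio of *Scd1*. Both genes lie on chromosome 19 with 1 protein-coding gene between them in RefSeq, and the array cannot show whether a probe set of one also binds RNA of the other. The desaturases of polyunsaturated fatty acids, *Fads1* and *Fads2*, are neighbours on chromosome 19. *Fads1* was at 1732 and 2343, a ratio of 1.35. *Fads2*, next to it, was at 738 and 1043, a ratio of 1.41, with 1.13 and 1.43 on its other probe sets.

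**Figure D3:**
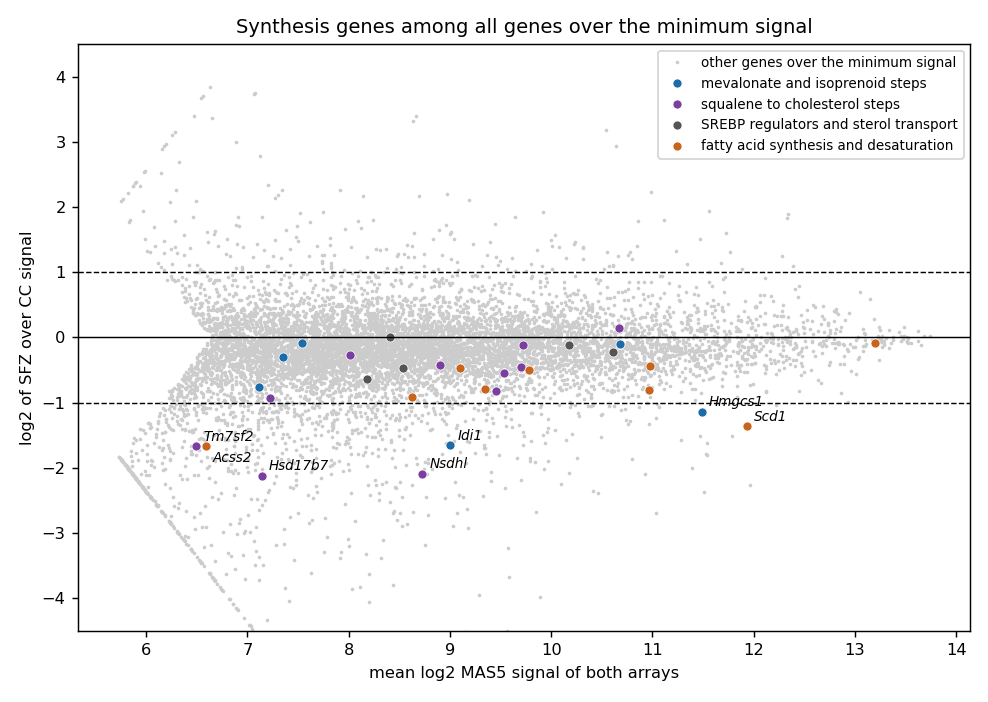
Log2 ratio of SFZ over CC against the mean log2 signal for the genes over 100 on at least 1 array (grey) and the 31 genes (colours by group), signals raised to background, 1 array per cell type. Dashed lines mark a ratio of 2, 39 genes lie beyond the vertical axis, and the 7 named genes are those called in CC, which are found both at low and at high mean signals.

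Probe sets of the same gene were the only repeat measurement within an array, and they share the RNA. Of the 72 probe sets, 62 were above background on at least 1 array, 16 were called in CC and none was called in SFZ cells. Of all probe sets, 3.58% were called in CC and 0.779% in SFZ cells. That base is unlike, since the median signals of all probe sets were 28.1 and 32.0, under the minimum of 100. The share among probe sets over 100 was not taken. By gene, 11.0% of the genes over 100 were called in CC. Among the 56 probe sets over 100 on at least 1 array, 54 had the higher signal in CC, counted on unscaled signals. By gene, 69.0% of the genes over 100 had the higher signal in CC as deposited. Their median log2 ratio of -0.20 moved to -0.0048 after median scaling. For 19 genes several probe sets were above background on at least 1 array, and they ran in the same direction for 16. The exceptions were *Fdft1*, *Hsd17b7* and *Sc5d*, in each case through their dimmest probe set above background.

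Lists of lipid genes outside synthesis differed from each other. Those of triglyceride synthesis and fatty acid oxidation had median log2 ratios of -0.53, like the -0.50 of the 31 synthesis genes. The other lists lay between -0.37 and -0.03. Beside the counts below, 11.0% of the genes over 100 were called in CC and 2.38% in SFZ cells. Of 10 measured genes of cholesterol transport, efflux and esterification, 2 were called in CC and 1 in SFZ cells. *Abcg1* and *Abca1*, exporters of cellular cholesterol that respond to sterol load, were at 44.2 and 187 in SFZ cells and 159 and 466 in CC, with ratios of 3.60 and 2.49. The exporter genes thus lay on the same side as the synthesis genes. *Npc1*, which releases cholesterol from lysosomes and was chosen once its values were known, was at 562 in SFZ cells against 231 in CC, 2.44-fold higher in SFZ cells. Its partner *Npc2*, chosen in the same way, was at 2428 and 3764. The list had a median log2 ratio of -0.37.

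Among 12 measured genes of fatty acid supply, elongation and activation, 9 were above background and 1 was called in CC, with a median log2 ratio of -0.17. It was the acyl-CoA synthetase gene *Acsl3*, at 193 in SFZ cells against 493 in CC, a ratio of 2.55. Its relative *Acsl4* was at 453 and 789, a ratio of 1.74. The list was split, since 5 of the 9 genes had the higher signal in CC and 4 in SFZ cells. Of the genes over 100, 69.0% had the higher signal in CC. Of 7 genes of triglyceride synthesis 1 was called in CC, and the median was -0.53. *Gpam*, the acyltransferase of the first step, was at 414 and 882, a ratio of 2.13, and *Dgat1*, of the last step, was at 153 and 289, a ratio of 1.88. The other enzyme of that step, *Dgat2*, named after its values were seen, had the higher signal in SFZ cells, at 593 and 381, a ratio of 0.642. Genes of fatty acid oxidation, the opposite process, had a like median of -0.53. Of 9 measured 2 were called in CC, *Acadm* at 512 and 1544, a ratio of 3.01, and *Acadl* at 638 and 1281, a ratio of 2.01. Both encode acyl-CoA dehydrogenases of mitochondria.

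**Figure D4:**
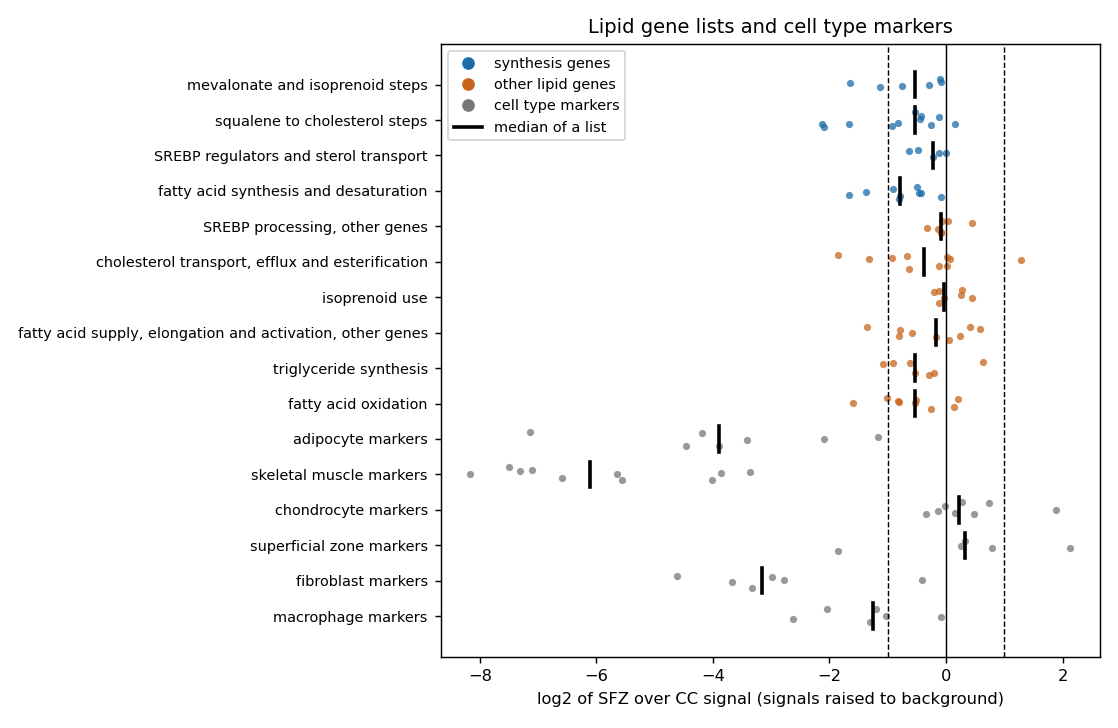
Log2 ratio of SFZ over CC for each gene above background on at least 1 array, by list, signals raised to background, 1 array per cell type. Bars are medians and dashed lines a ratio of 2. The medians of the 4 groups of synthesis genes lie between -0.79 and -0.22, that of the adipocyte markers at -3.89 and that of the skeletal muscle markers at -6.12, where values with a raised signal are bounds.

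Adipocytes and muscle also use several of these genes. Their measured markers other than *Cidec* (under background on both arrays) had the higher signal in CC, as 29 of the synthesis genes did. The adipocyte markers of highest mean signal were *Fabp4*, a lipid carrier, at 42.7 in SFZ cells against 6039 in CC, and *Lpl*, lipoprotein lipase, at 942 and 4009. The muscle genes were *Actc1*, an actin of embryonic muscle, at 28.7 and 8228, and *Mylpf*, a myosin light chain, at 28.6 and 5161. These muscle genes were close to background on the SFZ array. The fibroblast genes were *Col3a1* at 6421 and 8516 and *Postn* at 138 and 3394. The macrophage genes were *Lyz2* at 232 and 1432 and *Cd14* at 55.1 and 228, and the superficial zone genes were *Tnc* at 770 and 642 and *Thbs4* at 108 and 388. The synthesis genes had ratios of at most 4.35 on the probe sets used. All 10 muscle markers lay above that, the lowest with a bound of at least 10.3 for *Ckm*. Some markers of the other cell types lay within the range of the synthesis genes, among them *Lpl* at a ratio of 4.25, *Cd14* at 4.14 and *Col3a1* at 1.33. How much of the signal of *Scd1*, *Fasn* or *Acly* in CC came from adipocytes, muscle or chondrocytes was not tested.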

How the data were processed

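Biotinylated cRNA of both cell types was hybridised to Affymetrix mouse genome arrays, 1 for each. The authors deposited MAS5 signals, linear intensities per probe set, and the submitters' processing notes name MAS5. No source used here gives its version, its scaling target or detection calls. The deposited signals were not rescaled, and 64 control probe sets were left out. Of 45037 probe sets, 34945 had 1 gene symbol in the platform annotation, 932 had several and 9160 were unnamed here. Entrez identifiers of 34741 matched RefSeq genes of GRCm38.p6, and 0 symbols changed. A probe set with several symbols that include a listed gene was left out, which applied to 1. The array names no build, so coordinates are given only for RefSeq promoters.

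Calls used the minimum signal of 100 and the ratio of 2 of the study's SFZ list, mirrored for CC. Each gene was represented by its brightest probe set (mean log2 signal over both arrays), and signals under background were set to it before medians were taken. Ratios whose dimmer signal was under background are bounds. All listed synthesis genes are named, of each other lipid list the 2 genes with the largest absolute log2 ratio, and of each marker list the 2 with the highest mean signal. The genes and lists were chosen with earlier results of these data known. The number of arrays limits the precision. Alternatives were median scaling, quantile normalization, 64 added to both signals, ratios of 1.5 and 3, dropping probe sets of less specific design, other rules for combining probe sets, and a 99th percentile background. Python 3.11.15, numpy 2.4.6, pandas 2.3.3 and matplotlib 3.10.9 were used.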

Additional observations from a re-analysis of the deposited data

How the results depend on the processing

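No synthesis gene was called in SFZ cells under any alternative run. The 7 genes called in CC became 14 at a ratio over 1.5 and between 5 and 9 under the other alternatives, and *Nsdhl*, *Hsd17b7* and *Idi1* were called under all 8. *Hmgcs1* was lost with median scaling and at a ratio over 3, *Scd1* at a ratio over 3, and *Tm7sf2* and *Acss2*, with SFZ signals of 50.6 and 54.2, with 64 added. The 16 probe sets called in CC became 31 at a ratio over 1.5 and 7 at a ratio over 3. Other thresholds change these counts by construction. The median log2 ratio of -0.50 lay between -0.50 and -0.31. Of 186 ratios of single genes under alternatives, 177 moved by less than 1.5 times. With the median over all probe sets of a gene, which counts those under background, the log2 ratios of *Fdps*, *Fdft1* and *Scap* became 0.98, 0.49 and 1.23, and that of *Cyp51* became -1.40. Among called genes *Hsd17b7* moved from -2.12 to -1.49 and *Acss2* from -1.66 to -2.34, so that *Acss2* and no longer *Hsd17b7* had the highest ratio toward CC. With 64 added, the log2 ratios of *Hsd17b7*, *Acss2* and *Tm7sf2* were -1.44, -0.99 and -0.97, and *Nsdhl* at -1.80 had the highest ratio toward CC. *Nsdhl* also led after quantile normalization, at -1.86 against -1.83 for *Hsd17b7*. The same held without probe sets of less specific design, at -2.09 against -1.79. No paired analysis was possible because there is 1 array per cell type.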
